A study of Mus musculus with 72 samples.

Results

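Acetylation of histone H3 at lysine 27 (H3K27ac) was compared in microglial nuclei of Sgsh-deficient (SgshKO) mice at 8 and at 4 months of age. The comparison rests on 4 libraries of the 72 samples in the series, with 2 replicates at each age; they are the immunoprecipitated SgshKO columns of the microglial H3K27ac table, without the inputs. All mice were C57BL/6, and the tissue was brain, with forebrain named in the design. Microglia were taken as nuclei positive for the transcription factor PU.1 and negative for OLIG2 and NEUN. The 4 WT libraries of the same table, 2 at 4 months and 2 at 8 months, entered the same fit to estimate the spread and to give the age difference without the mutation. The labels do not say whether replicates came from separate animals, what sex the mice were or which allele removes Sgsh, so p-values measure only the spread between these libraries. An exact permutation test of 2 libraries against 2 cannot go below a two-sided p of 0.333, and the tests below are therefore models fitted over all peaks.

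Sgsh encodes sulfamidase, a lysosomal enzyme that removes sulfate groups from heparan sulfate, and its loss causes the storage disease mucopolysaccharidosis type IIIA. Undegraded heparan sulfate builds up over life, so the step from the younger to the older age addresses progression within the mutant. H3K27ac is a mark of active promoters and enhancers, and in microglia it is dense around lineage genes such as P2ry12 and Cx3cr1. The MiT/TFE factors MITF, TFEB and TFE3 bind E-box sequences in promoters of lysosomal genes.

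The 4 SgshKO libraries held 12704756 to 15061417 tags. The share of tags inside the 91770 peaks of the table was 39.3% and 47.2% at 4 months and 37.2% and 33.2% at 8 months, against 41.2% to 51.3% in WT. A peak is an 800 bp window, and levels are given as tags per 10M tags (10M being the effective total in the file headers) after scaling between libraries by the trimmed mean of M values (TMM). Peaks of the microglial marker genes averaged 165 tags per 10M at 4 months and 144 at 8 months, and peaks of neuronal markers averaged 7.92 and 8.19. One library at 4 months stood apart from the other SgshKO libraries on the X chromosome: at Xist, the noncoding RNA of the inactive X, its replicate 2 had 0.615 tags per 10M, whereas replicate 1 had 47.1 and the 8-month libraries had 55.5 and 63.1. Among WT libraries, the 8-month replicate 2 was likewise low, at 1.44 against 30.6 to 40.8. The count of calls, the medians of 5 gene lists and the differences at 5 single peaks are also given without both of them.

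Few differences in H3K27ac between 8 and 4 months were resolved in SgshKO microglia. Of 69663 peaks with enough tags to be tested, 1 fell at 8 months (0.00144% of the tested peaks) and none rose, at a false discovery rate (FDR) below 0.05 in limma. edgeR's quasi-likelihood test called the same single peak, and DESeq2 called it and 1 more lower peak. The count rested on single libraries: it was 0 without either 4-month SgshKO library, 42 (4 higher, 38 lower) without 8-month replicate 1 and 5 without 8-month replicate 2, and 0 without both libraries low at Xist. At an unadjusted p below 0.05 there were 5531 peaks (7.94%), of which 2077 (2.98%) were higher and 3454 (4.96%) lower at 8 months. The split depended on scaling: 37.6% of these peaks were higher with TMM, 46.9% with cyclic loess and 8.91% when libraries were divided by their total tags, a scaling under which the median over all peaks was -0.25 on the log2 scale instead of -0.03.

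Libraries of different ages were about as far apart as libraries of one age. The median absolute log2 difference over peaks was 0.32 between the 4-month replicates and 0.37 between the 8-month replicates, and it was 0.34 to 0.38 for the pairs across ages. The 95% interval of the age difference reached a median of 0.76 log2 units to either side of the estimate. For 32132 peaks (46.1%) the whole interval lay within a 2-fold difference in either direction, while for the other peaks a 2-fold difference was not resolved at this depth. In bulk nuclei, fewer nuclei with a mark and less mark per nucleus cannot be told apart.

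The peak that fell lies in intron 4 of 9 of Mid1, at chrX:169980633-169981433 (mm10), 2116 bases upstream of the start of G530011O06Rik, a gene model that the table names as nearest. Mid1, a microtubule-associated ubiquitin ligase, sits near the end of the X chromosome and in mice spans the boundary of the region shared with Y, and the table also assigns windows on Y to G530011O06Rik, so reads here may belong to more than one copy. The SgshKO libraries had 266 and 292 tags per 10M at 4 months and 89.4 and 152 at 8 months. WT libraries had 167 and 215 at 4 months and 186 and 244 at 8 months. Both 8-month SgshKO libraries thus lay below all 6 others, and both 4-month SgshKO libraries lay above all others.

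The log2 difference at this Mid1 window was -1.25 (SE 0.19, FDR = 0.00644 in limma, FDR = 0.00195 in edgeR and 0.00982 in DESeq2). In WT it was 0.17. The difference between genotypes in the age change was -1.41, with an unadjusted p of 5.71e-06 and an FDR of 0.398 in limma. The call was lost without either 4-month SgshKO library (FDR = 0.31 and 0.195 in limma, with differences of -1.3 and -1.18) and without 8-month replicate 1 (-0.85, FDR = 0.0854). With both libraries low at Xist left out the difference was -1.16 and the FDR 0.559 in limma. A second window that overlaps it and shares tags with it had a difference of -0.97 (FDR = 0.113 in limma).

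**Figure D1:**
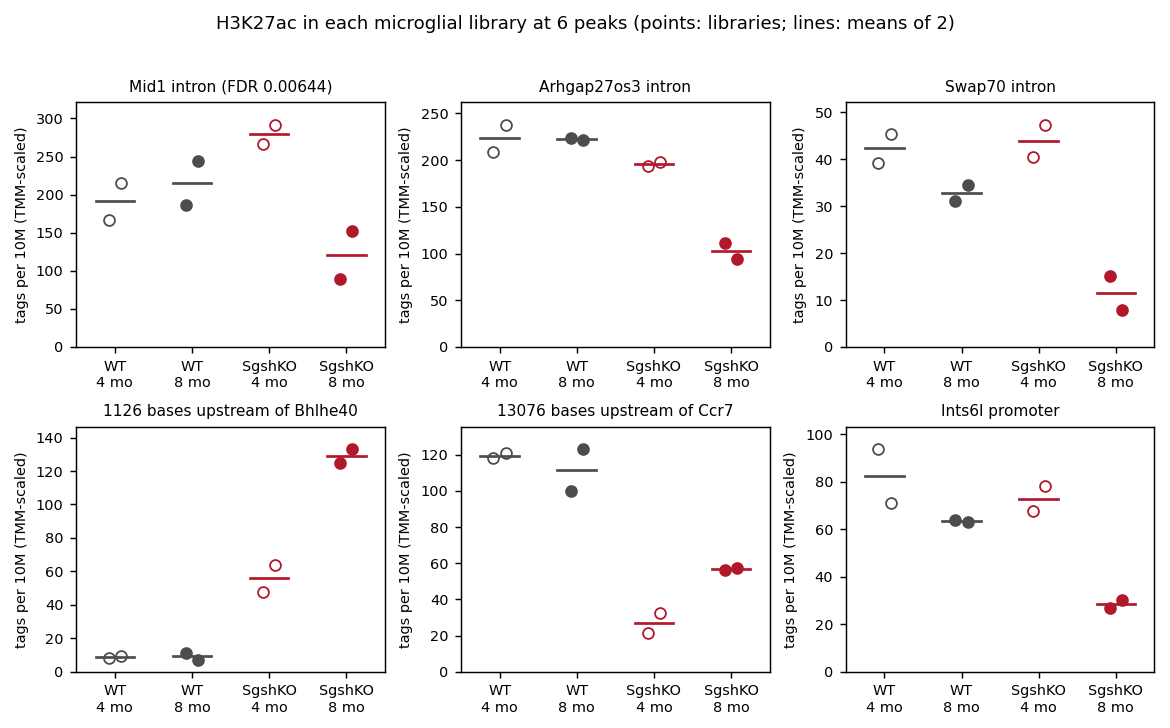
TMM-scaled H3K27ac in tags per 10M (vertical axis) of each of the 8 microglial libraries (points; open at 4 months, filled at 8 months; lines are means of 2) at 6 peaks. The Mid1 window, the only one of the 6 that passed the test, is lowest in both 8-month SgshKO libraries; at Ccr7 and Swap70 the ages are apart in SgshKO, and at Ccr7 the 4-month SgshKO libraries lie below every WT library.

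No other peak that leaned lower at 8 months passed the test in limma. The 10 lower peaks with the smallest p among peaks whose SgshKO libraries did not overlap between ages include both Mid1 windows. They had differences of -0.61 to -2.16 and FDRs up to 0.137 in limma. Of these 10, 1 lay within 1 kb of a start site, as did 1 of the 10 higher peaks described below. Of all 69663 tested peaks, 19909 lay within 1 kb. Lack of overlap alone says little with 2 libraries a group: with 8 months lower, it held for 14148 peaks (20.3%). An intronic peak of Arhgap27os3, a noncoding RNA gene, had 194 and 198 tags per 10M at 4 months and 111 and 94.2 at 8 months, with 209 to 238 in WT. Its difference was -0.93 (SE 0.17, FDR = 0.0633 in limma and 0.0491 in DESeq2), and the WT difference was 0. Without both libraries low at Xist it was -0.9 (FDR = 0.666 in limma).

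The promoter of Ints6l, a gene related to a subunit of the Integrator complex, had 67.7 and 78.1 tags per 10M at 4 months and 26.7 and 30.1 at 8 months (log2 difference -1.33, FDR = 0.128 in limma). A peak 12838 bases upstream of Spred1, an inhibitor of Ras signalling, had 79.5 and 80 and then 33.9 and 35.9 (-1.17, FDR = 0.137), and WT was also lower at 8 months there (124 and 106, then 77.1 and 82.6). An intronic peak of Swap70, which encodes an actin-binding signalling protein, had 40.5 and 47.4 and then 15.1 and 7.77 (-1.91, FDR = 0.113, and -1.79 without both libraries low at Xist). The ages did not overlap in SgshKO at any of these, as the choice of peaks requires, and the remaining lower peaks lay near 1300002E11Rik, the cell cycle factor gene E2f3, and the ubiquitin pathway genes Marchf10 and Rnf169.

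The 10 peaks that leaned higher had log2 differences of 1.07 to 2.95 and FDRs of up to 0.277 in limma, and none passed. Both 4-month WT libraries lay above both 4-month SgshKO libraries in 9 of these 10 peaks and in 2 of the 10 lower ones, an order that choosing peaks by low or high 4-month SgshKO values favours. A peak 13076 bases upstream of Ccr7, a chemokine receptor of migrating dendritic cells, had 21.3 and 32.6 tags per 10M at 4 months and 56.2 and 57.3 at 8 months in SgshKO, while WT had 99.8 to 123. Its log2 difference was 1.08 (FDR = 0.277 in limma), and 1.38 (FDR = 0.594) without both libraries low at Xist. A peak upstream of Cxcl13, a B cell chemokine, had 100 and 48.6 and then 146 and 150 (1.07, FDR = 0.27), and without the 2 libraries low at Xist, of which the 4-month one is SgshKO replicate 2, its difference was 0.57. The promoter of Fbxo18 (Fbh1), a DNA helicase gene, had 28 and 38.1 and then 64.9 and 93.2 (1.23, FDR = 0.225). A pair of windows in an intron of Peak1 and single peaks near Stoml1 and in Nkd1 were also in this set.

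The age difference depended on the level of a peak. When the peaks were ranked by mean level and divided into 5 groups of equal size, the median difference was 0.23 in the weakest group and -0.13 in the strongest. In that strongest group, 12.5% of peaks were lower and 0.696% higher at an unadjusted p below 0.05. In WT the medians of the same groups were 0.09 and 0.00. Cyclic loess, which removes any trend with level, brought the SgshKO medians to -0.05 and 0.00. The 8-month SgshKO libraries were also those with the smallest shares of tags in peaks, and the part of that in the trend was not tested. The medians of the gene lists of immune, lysosomal and metabolic function below are therefore given under both scalings.

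**Figure D2:**
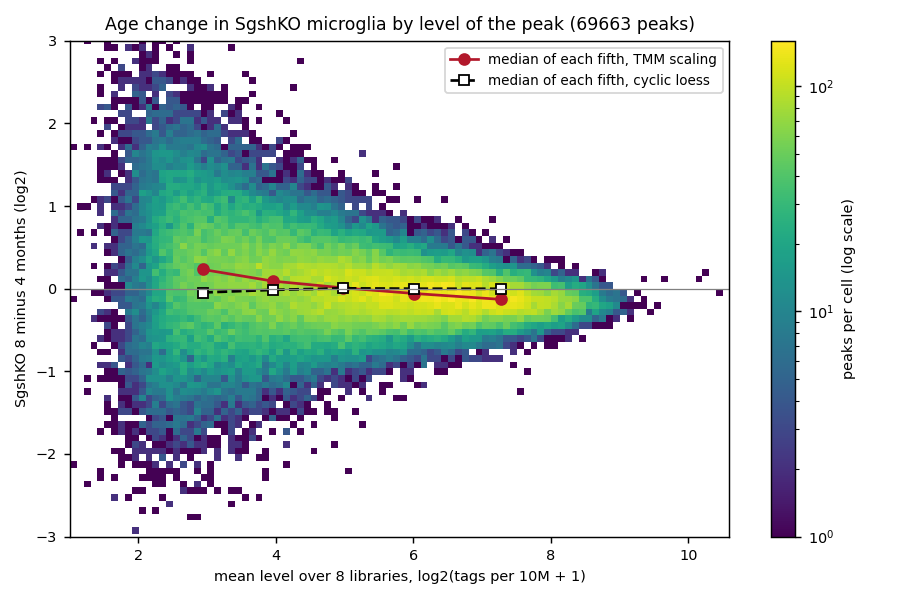
Log2 difference between 8 and 4 months in SgshKO (vertical axis) against mean level over 8 libraries (horizontal axis, log2 of tags per 10M plus 1); colour gives the number of peaks on a log scale. The red medians of the 5 level groups run from 0.23 to -0.13 with TMM scaling, and the black medians with cyclic loess stay between -0.05 and 0.00.

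H3K27ac around homeostatic genes, those that define resting microglia, was slightly lower at 8 months across many peaks, with no single peak past the test. Summed over 529 peaks of 22 genes, the signal was 75300 and 74900 tags per 10M in the 4-month SgshKO libraries and 65300 and 68000 in the 8-month ones, against 79700 to 81900 in WT. The 8-month SgshKO libraries were the lowest of the 8. Of 517 tested peaks 0 passed the FDR threshold in limma, 80 (15.5%) were lower and 6 (1.16%) higher at an unadjusted p below 0.05, beside 4.96% and 2.98% of all peaks, and the median log2 difference was -0.16 against -0.03 over all peaks. In WT the list's median was -0.02.

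These homeostatic peaks are strong ones, with a median level of 124 tags per 10M against 30.6 for all peaks. The strongest of the 5 level groups begins at 93.2. In that group 12.5% of peaks were lower and 0.696% higher at an unadjusted p below 0.05 in limma, and the median was -0.13, near the values of the list. With cyclic loess the list's median was -0.04 against -0.01 over all peaks, and the shares were 5.61% lower and 2.71% higher, against 3.3% and 2.91%. Leaving out 1 SgshKO library at a time gave medians of -0.12 to -0.17, and leaving out both libraries low at Xist gave -0.15. The lean was spread over the list: the median was negative for the purinergic receptor gene P2ry12 (-0.25 over 9), for the lineage factor Sall1 (-0.2 over 57) and for the fractalkine receptor gene Cx3cr1 (-0.2, with 27 of 28 peaks below 0). It was 0.1 for Gpr34 and 0.01 for Csf1r.

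At the promoters of these genes no single difference passed the test. Over 46 promoter peaks (within 1 kb of a start site) the median was -0.17, against 0.01 over all promoter peaks. At an unadjusted p below 0.05 in limma, 4 were lower (8.7%) and 0 higher, against 3.39% and 3.37% of all promoter peaks. Both comparisons are with TMM scaling only and were not matched by level. In the strongest of the 5 level groups, promoters and other sites together, the median was -0.13 and 12.5% were lower at that threshold. P2ry12 had 361 and 311 tags per 10M at 4 months and 240 and 342 at 8 months (log2 difference -0.23, 95% interval -0.52 to 0.07). Tmem119, a microglial surface protein, had 76.5 and 80.6 and then 80 and 55.3 (-0.24, -0.71 to 0.24). Cx3cr1 had 340 and 290 and then 280 and 339 (-0.03, -0.3 to 0.24). The ages overlapped at these 3 promoters. They did not overlap at the Csf1r promoter, with 224 and 276 and then 215 and 213 (-0.21, -0.5 to 0.07). Among homeostatic peaks with a mean level of at least 20, the lowest differences were -1.17 at a site near Siglech (55.2 and 63.4, then 27.4 and 24.3; FDR = 0.304 in limma) and -1.17 in the 3' UTR of the TGF-beta receptor gene Tgfbr2 (41.9 and 23.4, then 7.21 and 24.3; FDR = 0.542), where the ages overlapped. The highest was at an intronic site of Tgfbr1, which encodes the partner receptor (22.8 and 15.4, then 28.8 and 53.4; 1.03, FDR = 0.544).

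**Figure D3:**
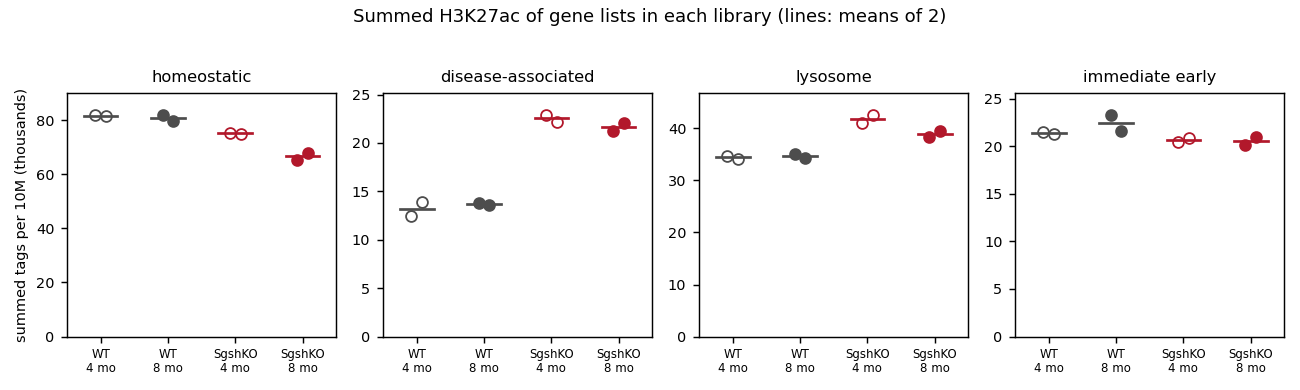
Summed TMM-scaled H3K27ac (units of 1000 tags per 10M, vertical axis) over the peaks of 4 gene lists in each of the 8 libraries (points; lines are means of 2). The homeostatic sum is lowest in both 8-month SgshKO libraries, the disease-associated sum is above WT at both ages in SgshKO, and the immediate early sums overlap between the ages.

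Genes of disease-associated microglia (DAM), a state seen around lipid and amyloid deposits, had summed H3K27ac that differed little between the ages in the mutant and lay above WT at both. Their summed signal was 22900 and 22200 tags per 10M at 4 months and 21200 and 22100 at 8 months, and 12500 to 13900 in WT. Of 228 tested peaks none passed in limma, 11 were higher (4.82%) and 7 lower (3.07%) at an unadjusted p below 0.05, beside 2.98% and 4.96% of all peaks, and the median difference was 0.02 with TMM and 0.03 with cyclic loess. The median was -0.05 without the 4-month replicate 2 and -0.04 without both libraries low at Xist, so its sign is not settled.

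The promoter of Apoe, the main brain lipoprotein, had 160 and 167 tags per 10M at 4 months and 194 and 156 at 8 months (log2 difference 0.09, 95% interval -0.5 to 0.68), and 16.5 to 40.4 in WT. The integrin gene Itgax had 171 and 141 and then 163 and 156 (0.03, -0.38 to 0.45), and the tetraspanin gene Cd63 had 240 and 292 and then 270 and 280 (0.05, -0.31 to 0.42). The ages overlapped at these promoters, and each interval lay within a 2-fold difference. Intervals were wide at weak sites: the secreted phosphoprotein gene Spp1 had 6.62 and 4.92 and then 13 and 19.4 (1.33, -0.4 to 3.06), and the lipoprotein lipase gene Lpl had 11 and 9.23 and then 15.9 and 24.3 (0.9, -0.25 to 2.04).

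Axl, a receptor for dying cells, was the fixed gene with the smallest p in the interaction of age and genotype. SgshKO had 28 and 45.5 tags per 10M at 4 months and 52.6 and 60.2 at 8 months (0.64), whereas WT had 24.8 and 18.9 and then 5.51 and 8.62 (-1.52). The difference between the 2 age changes was 2.16 with an unadjusted p of 0.000475 and did not pass over all peaks in limma. Ccl6, a chemokine gene, had the largest negative difference among stronger DAM peaks, with 196 and 158 and then 110 and 108 at its promoter (-0.69, FDR = 0.337). Peaks around Ccl6 went both ways: of 8 tested, 6 had a positive difference, and the median was 0.13. Around Ch25h, which makes 25-hydroxycholesterol and was singled out after its values were seen, all 8 tested peaks had a positive difference (median 0.62). Of the 8, 2 were higher at an unadjusted p below 0.05 in limma. Over all peaks, 47.2% had a positive difference and 2.98% were higher at that threshold. The positive share was 61.4% in the weakest of the 5 level groups and 25.6% in the strongest. Windows near 1 gene can overlap and share tags, so the 8 are not independent.

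All 35 genes chosen by name had a tested peak, and it lay within 1 kb of the start site for 33. None of the 35 passed in limma, where 1 had an unadjusted p below 0.05, and for 25 the interval lay within a 2-fold difference. Over the 33 genes whose values are reported here, the estimates ran from -0.27 at Tfeb to 1.33 at Spp1.

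**Figure D4:**
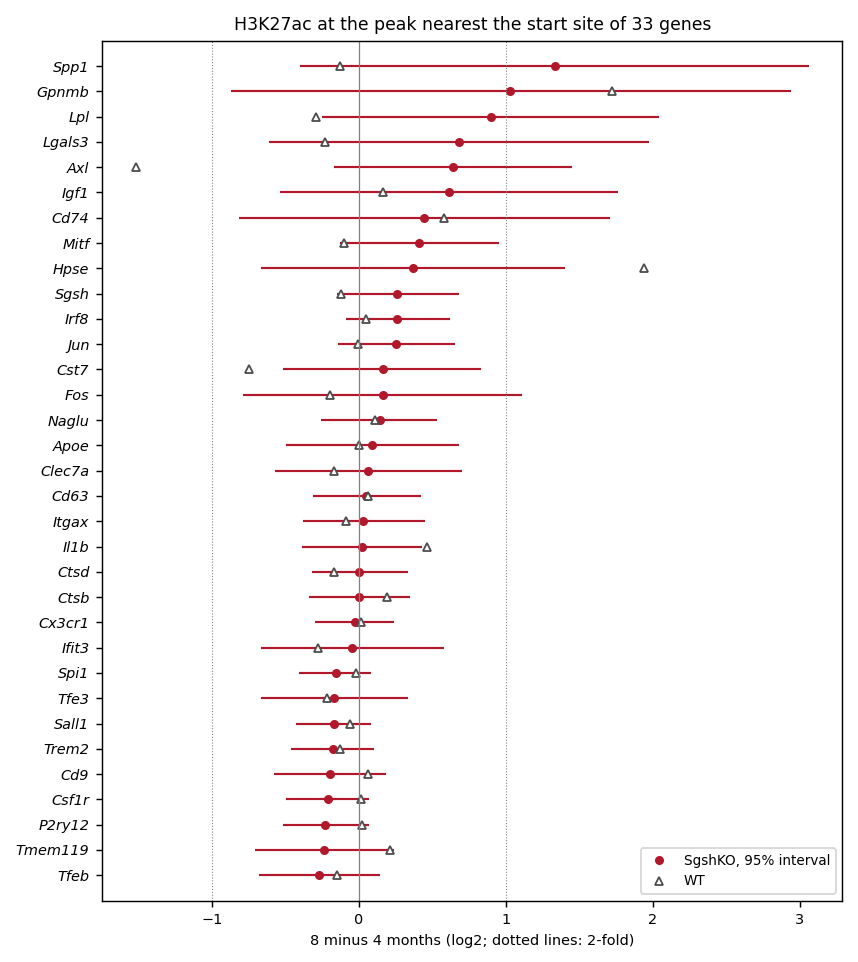
Log2 difference between 8 and 4 months (horizontal axis) at the tested peak nearest the start site of 33 genes, in SgshKO (points with 95% intervals) and in WT (triangles). Estimates in SgshKO run from -0.27 at Tfeb to 1.33 at Spp1; intervals are widest at weak peaks such as Spp1 and Gpnmb.

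Lysosomal genes held more H3K27ac in SgshKO than in WT at both ages, and within SgshKO the sum was lower at the older age. It was 41100 and 42600 tags per 10M at 4 months and 38300 and 39600 at 8 months, and 34200 to 35100 in WT. Of 349 tested peaks of 50 genes none passed in limma, 26 were lower (7.45%) and 6 higher (1.72%) at an unadjusted p below 0.05, beside 4.96% and 2.98% of all peaks, and the median was -0.08. With cyclic loess the median was 0 and the shares were 3.44% lower and 2.29% higher, against 3.3% and 2.91% of all peaks. Without both libraries low at Xist the median was -0.04. Over the 100 promoter peaks of the list the median was -0.09 with TMM, against 0.01 over all promoter peaks. At the promoters of Ctsd and Ctsb, the lysosomal protease genes chosen by name, the estimates were 0. Ctsd had 230 and 190 and then 223 and 197 (0, 95% interval -0.32 to 0.33), and Ctsb had 229 and 225 and then 189 and 274 (0, -0.34 to 0.35). The largest difference among the stronger peaks was in an intron of Atp6ap2, an accessory subunit of the proton pump (48.6 and 65.8, then 20.2 and 30.1; -1.17, FDR = 0.328).

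Among 9 heparan sulfate degradation genes with tested peaks, 57 peaks had a median difference of -0.12 (-0.08 with cyclic loess), and WT had 0.11. None passed in limma, and 3 were lower (5.26%) and 1 higher (1.75%) at an unadjusted p below 0.05, against 4.96% and 2.98% of all peaks. The promoter of Sgsh itself had 100 and 112 tags per 10M at 4 months and 112 and 145 at 8 months in SgshKO (0.26, FDR = 0.798), and 94.8 to 117 in WT, so this window does not check the deletion. Naglu, which removes N-acetylglucosamine from heparan sulfate, had 114 and 141 and then 148 and 131 (0.14). Hpse, which encodes the cutting enzyme heparanase, had 64 and 64 and then 79.3 and 86.4 (0.37, FDR = 0.912), while WT had 0 to 7.35.

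The 3 promoters of lysosomal enzyme genes that were chosen by name and hold an E-box core are shown because the MiT/TFE factors were measured at the same sites. The sequences are RefSeq's for GRCm38.p6 (the mm10 assembly), on the strand of the gene, and capitals mark the palindrome CACGTG.
Sgsh: gcctgccgtgCACGTGaccgtgggga
Naglu: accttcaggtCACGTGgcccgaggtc
Ctsd: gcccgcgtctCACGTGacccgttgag
They lie at chr11:119355524-119355549 (minus strand), chr11:101070011-101070036 (plus strand) and chr7:142387910-142387935 (minus strand), and the core begins 29, 73 and 98 bases before the start site. At Ctsd the core is part of TCACGTGA, the longer form. Pooled TFE3 signal in SgshKO, in deposited tags per 10M with no age given and no replicates, was 65.4 at Sgsh, 1051 at Naglu and 330 at Ctsd, with input at 3.97, 11.2 and 3.97. The H3K27ac differences between the ages at these 3 promoters were 0.26, 0.14 and 0.

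Peaks that hold such a motif in the promoter window (250 bases before to 50 after the start site) had nearly the same median age change as those without. RefSeq promoter windows lay wholly inside 9080 tested peaks. The median difference was 0.04 in the 1038 peaks holding CACGTG and 0.02 in the 8042 without it, and 0.01 in the 192 holding TCACGTGA and 0.02 in the 8888 without it. CACGTG, which includes every TCACGTGA and reads the same on both strands, occurs in 7.15% of all promoter windows, and TCACGTGA in 0.974%. Over all tested peaks, those bound by at least 1 factor (pooled signal at least 2-fold over input, as a mean of the log2 ratio over genotypes) had a median of -0.04 and those bound by none 0.01. With cyclic loess both lay between -0.03 and 0.00.

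The genes of the factors themselves gave a similar picture. The 48 tested peaks around the MiT/TFE genes had a median of -0.13 (-0.06 with cyclic loess), none passed in limma, and 3 were lower at an unadjusted p below 0.05 (6.25%, against 4.96% of all peaks). The Mitf promoter had 66.2 and 64 tags per 10M at 4 months and 77.8 and 97.1 at 8 months (0.41, FDR = 0.736), above WT (38.8 to 48) at both ages. The Tfeb promoter had 120 and 194 and then 125 and 128 (-0.27, FDR = 0.781). Peaks of genes for mTORC1 at the lysosome had a median of -0.06 over 93 peaks (-0.01 with cyclic loess), and peaks of autophagy genes 0.07 over 101 (0.05 with cyclic loess).

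Among genes of immune response, the median was below 0 for interferon genes and above 0 for antigen presentation genes, with no peak past the test in limma. The interferon list had a median of -0.14 over 94 peaks with TMM, -0.16 with cyclic loess and -0.17 without both libraries low at Xist. Of the 94 peaks, 3 were higher (3.19%) and 4 lower (4.26%) at an unadjusted p below 0.05, near the shares over all peaks (2.98% and 4.96%). Of the 94, 36 were assigned to 1 gene, Zbp1, with a median of -0.07. The median over the 30 promoter peaks of the list was -0.22 with TMM, against 0.01 over all promoter peaks. The promoter of Ddx58, the RNA sensor RIG-I, had 53 and 40 tags per 10M at 4 months and 24.5 and 25.2 at 8 months (-0.86, FDR = 0.528), without overlap, and WT had 28.8 to 50.3. Antigen presentation genes had a median of 0.19 over 55 peaks, 0.09 with cyclic loess and 0.48 without 8-month replicate 1. Of the 55, 3 were higher (5.45%) and 1 lower (1.82%) at an unadjusted p below 0.05. The median was 0.02 over their 23 promoter peaks, against 0.01 over all promoter peaks, and 0.37 over their 32 distal peaks. These peaks were weak, with a median level of 17.8 tags per 10M. In the level group from 8.75 to 19.6 the median over all peaks was 0.09. Inflammatory genes had a median of -0.02 over 182 peaks, which was 0.04 with cyclic loess.

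Immediate early genes, which respond within minutes to stimulation, leaned higher in their median under both scalings, while their summed signal overlapped between the ages. Over 499 peaks the sum was 20400 and 20900 tags per 10M at 4 months and 20100 and 21000 at 8 months in SgshKO. The 328 tested peaks of these genes had a median of 0.13 with TMM and with cyclic loess, and of 0.09 in WT. The SgshKO median was 0.1 without both libraries low at Xist. The median difference between genotypes in the age change was 0.02. At an unadjusted p below 0.05, 19 were higher (5.79%) and 11 lower (3.35%), beside 2.98% and 4.96% of all peaks, and none passed in limma. The genes of the list did not lean alike. The median was 0.54 around Fos, with 27 of 32 peaks above 0, and -0.02 around Jun. Around Zfp36, which encodes a protein that destabilises cytokine mRNAs, it was -0.27, with 7 of 8 peaks below 0 and 4 of the 8 lower at an unadjusted p below 0.05. The Fos promoter itself had 16.2 and 18.5 tags per 10M and then 21.6 and 17.5 (0.16), with overlap between the ages.

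Lipid and cholesterol genes had a median of 0.01 over 195 peaks (0.04 with cyclic loess), and none passed in limma. The promoter of Fasn, fatty acid synthase, had 21.3 and 14.1 tags per 10M at 4 months and 50.4 and 30.1 at 8 months (1.12, FDR = 0.393 in limma), and WT had 32.4 to 53.6. The promoter of Srebf1, a transcription factor that activates lipid synthesis genes, had 45.6 and 31.4 and then 14.4 and 14.6 (-1.33, FDR = 0.466), and WT had 9.34 to 22.4. Peaks around Srebf1 went both ways, with 2 of 8 higher and 2 lower at an unadjusted p below 0.05 and a median of 0.43. At the Fasn and Srebf1 promoters, the 8-month SgshKO libraries lay nearer the WT range than the 4-month ones did. Choosing these peaks by the size of their age difference favours such an order, and neither passed the test.

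Lineage factor genes had a median of -0.02 over 443 peaks (0.04 with cyclic loess). A site 1126 bases upstream of Bhlhe40, a transcription factor of lipid-handling macrophages, had 47.8 and 64 tags per 10M at 4 months and 125 and 133 at 8 months in SgshKO, and 7.18 to 11 in WT. The difference was 1.21 (SE 0.37, FDR = 0.387 in limma). When the 4 SgshKO libraries were fitted alone, 14 peaks passed, 10 higher and 4 lower, and 4 of them were overlapping windows that run from upstream of Bhlhe40 across its start site, with this one at an FDR of 0.0226. That fit estimates the spread from 2 degrees of freedom within these libraries, and 2 of its calls were the Xist window and a Y window of Erdr1, where the SgshKO libraries had 41.2 and 100 tags per 10M at 4 months and 24.5 and 6.8 at 8 months and WT had 8 to 152.

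**Figure D5:**
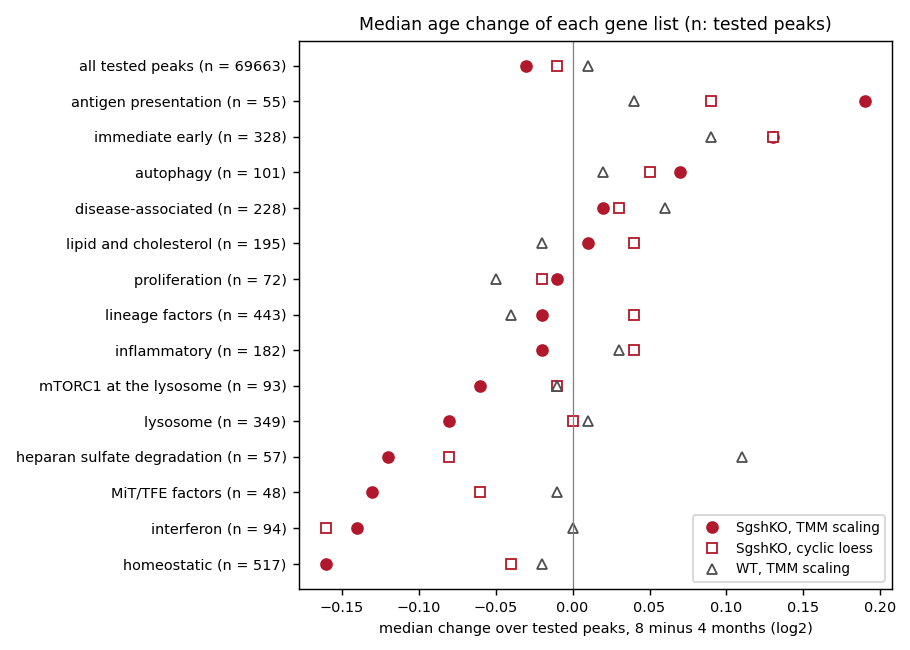
Median log2 difference between 8 and 4 months over the tested peaks of 14 gene lists and of all peaks, in SgshKO with TMM scaling (filled circles), in SgshKO with cyclic loess (open squares) and in WT (triangles). The homeostatic median moves from -0.16 to -0.04 between the scalings, and the immediate early median is 0.13 under both.

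Summed signal at markers of other cell types overlapped between the ages for 6 of 7 lists, while medians over single peaks were above 0 for most of them. Summed over their peaks, neuronal markers gave 238 and 190 tags per 10M at 4 months and 225 and 217 at 8 months, oligodendrocyte markers 1970 and 2090 and then 1940 and 2010, and markers of border macrophages 767 and 832 and then 830 and 790. Astrocyte markers gave 1840 and 1760 and then 1810 and 1660, endothelial markers 1610 and 1610 and then 1570 and 1730, and B and T cell markers 265 and 295 and then 339 and 287. Monocyte and neutrophil markers gave 305 and 317 and then 300 and 280, below WT (485 to 639). No peak was listed for Gad1, Gad2, Stmn2, Sox10, Sox9, Tie1, Tek, Ly6c2, Retnlg, Cd79a, Cd8a or Trac. The microglial marker sum went from 36200 and 35700 to 30500 and 32200. As medians over tested peaks, the age difference was 0.24 for endothelial (41 peaks), 0.24 for border macrophage (27), 0.18 for B and T cell (11) and 0.11 for neuronal markers (11). It was 0.04 for astrocyte, 0.02 for oligodendrocyte, -0.1 for monocyte and neutrophil and -0.19 for microglial markers, beside -0.03 over all peaks. With cyclic loess the endothelial, border macrophage, B and T cell and microglial medians were 0.12, 0.07, 0.2 and -0.06. The part of these in the gene list results was not tested.

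WT microglia showed no called change between the same ages, and the age change of SgshKO was not shown to differ from it. In limma 0 of 69663 peaks passed for WT (4129, or 5.93%, at an unadjusted p below 0.05), 0 for the interaction of age and genotype (4507, or 6.47%) and 0 for age over both genotypes with 4 libraries against 4 (4981, or 7.15%). edgeR and DESeq2 each called 0 for WT and the interaction, and 1 peak for age over both genotypes. Without WT 4-month replicate 2, limma called 567 peaks for WT, 61 for the interaction and 106 for age over both genotypes. The smallest FDR for age over both genotypes, 0.138, was at an intronic peak of Sft2d2, a vesicle transport gene, with 196 and 191 and then 99.5 and 117 tags per 10M in SgshKO (-0.83) and 184 and 226 and then 119 and 151 in WT (-0.6). An intronic peak of Runx1, a transcription factor of blood lineages, was higher at 8 months in both genotypes (110 and 81.2, then 138 and 162 in SgshKO, and 101 and 81.6, then 186 and 125 in WT; FDR = 0.343). Across all tested peaks the age changes of the 2 genotypes, which share no library, had a Pearson correlation of 0.015, and the sign was the same in 50.6%. Of the 301 peaks with an unadjusted p below 0.05 in both genotypes, 186 had the same sign. In the SgshKO inputs, unprecipitated chromatin measured over the same windows, 0 of 39323 peaks passed in limma and 813 (2.07%) had an unadjusted p below 0.05.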

How the data were processed

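Chromatin immunoprecipitation sequencing of H3K27ac in sorted microglial nuclei was deposited by the authors as signal in tags per 10M tags of each library, per the file headers, over windows of 800 bp at accessible sites. Bowtie2, HOMER, DESeq2 and mm10 are named in the submitters' processing notes, without versions. Low values were whole multiples of 1 tag (100% within 0.02 of a step in the SgshKO ChIP columns), so tag counts were recovered; on them edgeR's count test called 1 peak and DESeq2 called 2. Totals of the inputs were taken from that step. Gene symbols that a spreadsheet had turned into dates (169 peaks) were restored by gene ID. The number of value columns left unmapped was 0.

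Peaks were kept by filterByExpr of edgeR 4.0.16, scaled by TMM, and log2(tags per 10M + 1) was tested over 8 libraries in 4 groups with limma 3.58.1 (mean trend, two-sided, Benjamini-Hochberg FDR below 0.05); a fold change on this scale understates that of weak peaks. Intervals are 95%. Alternatives were total tags, DESeq2 1.42.0 size factors, cyclic loess, pseudocounts of 0.5 and 5, no filter, edgeR, DESeq2, fewer libraries and the replicate number as a block. Scripts were tested on simulated counts. Named peaks were the 10 higher and 10 lower with the smallest p among peaks without overlap between ages, the peak nearest the start site of 35 fixed genes, the 2 largest and 2 smallest differences per list at a level of at least 20, and the top 3 in each direction for age over both genotypes. Ch25h, Fos and the genes with medians over their peaks were singled out after their values were seen. Comparison, lists and genes were chosen with earlier results of these data known. Promoters were matched by symbol to RefSeq (27 of 35 genes); sequences of other peaks were not used here. Some of the named peaks are not reported here.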

Additional observations from a re-analysis of the deposited data

How the results depend on the processing

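The number of peaks called for SgshKO 8mo vs 4mo, 1 in the report, was 5 with a pseudocount of 5, 2 with DESeq2, 4 with a replicate block and 14 with only the SgshKO libraries. It was 0 to 42 when 1 SgshKO library was left out: 0 without either 4-month library, 42 without 8-month replicate 1 and 5 without 8-month replicate 2. It was 0 with both libraries low at Xist left out, an alternative chosen after seeing the data. The interaction, 0 in the report, gave 1 with a pseudocount of 5, 2 with a replicate block and 0 to 61 leaving out 1 library, with 61 without WT 4-month replicate 2. Age over both genotypes, 0 in the report, gave 1 with cyclic loess, 1 with a pseudocount of 5, 1 with edgeR, 1 with DESeq2 and 0 to 106 leaving out 1 library (106 without WT 4-month replicate 2). WT 8mo vs 4mo gave 0 to 567 leaving out 1 library, with 567 without WT 4-month replicate 2. The cause was not tested. The inputs, whose intervals in the main fit were too wide to resolve a 2-fold difference, gave 0 under every alternative run. Same-numbered libraries did not deviate together (correlations of -0.0199 to 0.0074), so the replicate numbers do not pair them. Of 20 named peaks none changed sign in 280 alternative values, in 4 of which a call was lost and in 19 gained. The choice of these 20 peaks, by small p and without overlap between the ages, favours a constant sign, so this is no measure of robustness. Of 35 fixed genes, none called, 17 changed sign under at least 1 of 14 alternatives, and of 14 list medians 10 did. Depth limits weak peaks: of 5 equal groups of peaks by level, the weakest had 0% of intervals within a 2-fold difference and the strongest 98.6%.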

Other observations

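On the unplaced sequence Un_JH584304, singled out after its values were seen, 31 tested peaks had a median difference of 0.30 in SgshKO between 8 and 4 months, with 90.3% above 0, and -0.01 in WT. Over all tested peaks, 47.2% were above 0 in SgshKO. None of the 31 passed in limma. At an unadjusted p below 0.05, 3 were higher (9.68%, against 2.98% of all peaks) and 0 lower. In WT, 16.1% of the 31 were lower at that threshold, against 2.27% of all peaks. When the 4 SgshKO libraries were fitted alone, calls that the joint fit did not make included higher peaks nearest Rxrg, a nuclear receptor gene (log2 difference 1.68, FDR = 0.0397 in limma), and Rab7b, a gene of endosome traffic (2.34, FDR = 0.0457).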
